A study of Mus musculus with 6 samples.

Results

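Pairs of named mouse genes that lie on opposite strands and overlap at their 3′ ends were described in bulk RNA sequencing of 2 wild-type cell states. A pair was included when the plus-strand gene began before the minus-strand gene, ended inside it, and shared at least 1 exonic base with it. Pairs with an unnamed gene, or with a symbol of the Gm-number or Rik type, were left out. This gave 855 pairs out of the 5402 opposite-strand pairs that share exonic bases in the deposited table, and 1703 of its 57010 genes. Tail-to-tail pairs in which at least 1 gene had no such name numbered 728. The rule uses positions, strands and symbols.

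The ESC group held 3 samples of wild-type mouse embryonic stem cells, which are pluripotent cells. The neuron group held 3 samples of wild-type primary cortical neurons, prepared from embryos at day 16.5 and kept for 7 days in vitro, so it is a mixed primary culture. No perturbation was applied to either group according to the labels, and the library names of neuron replicates 2 and 3 hold the word empty, which the labels do not explain. The study used these samples as pluripotent and neuronal reference states in work on the gene Rai1. Polyadenylated RNA was primed with oligo-dT and read as paired ends.

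Convergent genes that run into each other share a stretch of genome in which both strands are transcribed, and the overlap usually lies in their 3′ untranslated regions. Transcripts of such a pair are complementary over that stretch. A read from it can be assigned to the right gene only if the library records the strand and the counting uses it. Whether the library kit recorded the strand, and which strand setting the counting used, is not given in the sources used here. From these sources it therefore cannot be said how reads of the shared stretch were assigned between the genes of a pair. Each value below is the count that the deposited table lists under a symbol. If the counting read the strand opposite to the transcripts, counts listed under a gene would be reads of its partner, and every statement on which gene of a pair leads would turn round. Fold changes, calls, list sums and family tallies given under a symbol would then also describe reads of the opposite strand. This was not tested.

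The ends of 4 pairs on which the results turn are shown, read from GENCODE M21 transcripts on GRCm38, as the last 30 bases of a transcript of each gene, 5′ to 3′. Capitals mark the cleavage and polyadenylation signal AATAAA or its variant ATTAAA, at the occurrence nearest the end where there are several. In the first 2 pairs no change of split between the groups was called, the next pair was among those with the most counts, and in the last pair the split turned over.
Cfl1, chr19:5495172-5495201, plus strand: taaataaataaatgaataAATAAAactttt
Snx32, chr19:5492235-5492264, minus strand: acagtacttATTAAAaagaagaccttagcc
Ctnnb1, chr9:120960478-120960507, plus strand: tggttcagaATTAAActtttaattcattca
Ulk4, chr9:120955351-120955380, minus strand: catcggaacccagaagctgcactagagtcc
Phykpl, chr11:51604460-51604489, plus strand: tttaaatgtAATAAAaacaaaaccccgtct
Hnrnpab, chr11:51600100-51600129, minus strand: gttttcttaAATAAAttgagggagaccttg
Dnase2a, chr8:84922886-84922915, plus strand: aattgcttcAATAAAcaaatggatgagaag
Mast1, chr8:84911903-84911932, minus strand: atataAATAAAgtgcccatgctgcctgaga

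The reverse complement of the Cfl1 end was found in a Snx32 transcript, 354 bases before that transcript's own end. That of the Ctnnb1 end lay 759 bases before the end of a Ulk4 transcript, and that of the Ulk4 end lay 2129 bases before the end of a Ctnnb1 transcript. The Phykpl end was matched in Hnrnpab at 1572 bases and the Mast1 end in Dnase2a at 2086 bases, while the ends of Snx32, Hnrnpab and Dnase2a had no match in their partner's transcripts of that release. Over all 855 pairs, both ends were found in the partner in 340 pairs, 1 end in 288 and no end in 227. The letters AATAAA or ATTAAA, searched on the transcript strand, occurred in the last 30 bases of 990 of the 1703 member genes (58.1%), and of 958 of 1614 protein-coding members (59.4%). The share was 62.2% over all 21827 protein-coding genes with an annotated end and 36.3% over all 51998 such genes. A match is a description of these letters, and no match says only that the letters are not in this window.

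Of the 855 pairs, 771 joined 2 protein-coding genes, 79 joined a protein-coding and a non-coding gene, and 5 held no protein-coding gene. The pairs were spread over 21 chromosomes, and 3 were mitochondrial. The shared exonic stretch ran from 1 to 4652 bases with a median of 330 and quartiles of 108 and 874, and it made up a median of 8.37% of a member's exonic length. In 524 pairs neither gene shared exonic bases with any further gene on the opposite strand. In the other pairs a gene shares bases with a further partner as well. Among the genes named below this holds for Tlcd1, Tcp1, Srr, Asph, Ikzf5, Ccdc167, Nr2c2, Dnajc7, Trmt2a, Cpsf7, Tomm6os, Man2c1os, Myadml2os, Notum, Dlx1as and Rps25.

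Library totals ran from 1368303 to 1775055 counts in ESC and from 513425 to 624792 in neuron libraries, and a gene with 3 counts stood at 2.26 to 2.90 CPM (counts scaled to the normalised library total) in ESC and 3.92 to 4.81 CPM in neuron libraries. The labels give each group a batch of its own, so batch and group cannot be told apart. ESC replicate 2 stood apart from the other ESC replicates, with a chi-square statistic per degree of freedom over member genes of 6.78 and 7.29 against 1.43 between replicates 1 and 3. The pluripotency list summed to 298 to 399 CPM in ESC and 8.01 to 20.9 CPM in neuron libraries, with 15 of its 25 genes at 0 in every neuron library. The neuronal list summed to 398 to 449 CPM in ESC and 1212 to 1435 CPM in neuron libraries, but of its 9 genes that passed the count filter 3 were higher and 4 lower in neurons. The sums of both lists thus differed in the direction of the labels. Single neuronal markers moved either way, where 47.0% of all tested genes were higher and 38.6% lower. These sums are of counts listed under symbols, and the doubt about the strand holds for them. Whether they reflect the labelled cell types was not tested.

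Member genes took 29.1% to 29.9% of ESC library counts (29.5% ± 0.447, SD, n = 3) and 20.5% to 21.3% in neuron libraries (20.8% ± 0.458, SD, n = 3). The groups did not overlap, and the difference of 8.64 percentage points had an exact two-sided permutation p of 0.1, the smallest that 3 against 3 samples allow. Without the 3 mitochondrial pairs, a setting added once the data had been seen, the means were 26.6% and 19.9%. A fall was not particular to the members. Mean shares went from 15.31% to 11.95% in genes of named head-to-head pairs and from 7.25% to 5.51% in named pairs with 1 gene inside the other. In convergent pairs without overlap, described below, they went from 3.07% to 1.36%. The groups did not overlap in any of these classes (exact two-sided permutation p = 0.1 in each). The plus-strand gene of a pair held 50.7% to 52.2% of the counts of all pairs in ESC and 50.4% to 51.0% in neuron libraries, so the counts were spread almost evenly over the strands.

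Most members were detected. At least 10 counts were listed for 63.5% to 68.5% of member genes in each library. Among 831 genes of 426 convergent pairs that end within 1000 bases of each other without overlapping, a class chosen after the data were seen, the share was 20.8% to 29.4%. Unlike the members, these 831 genes share no exonic bases with any gene on the opposite strand. The share was higher for the overlapping pairs in 6 of 6 libraries, by a mean of 40.2 percentage points. Genes of the 574 named pairs that overlap head to head reached 10 counts in 45.5% to 63.5% of cases, lower in 6 of 6 libraries by a mean of 11.7 points. The same genes are compared in each library, so these are descriptions with no test. The part of the strand setting in these differences was not tested. Only 39 of the 1703 member genes had no count in any library, and 6 pairs were empty on both strands, among them the olfactory receptor pairs Olfr615 with Olfr616 and Olfr638 with Olfr643, which were named after their values were seen.

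Pairs that shared more bases had more counts. The CPM of both genes of a pair was summed and averaged over the 6 libraries. Its median was 12.9 in the 426 convergent pairs without overlap, 22.4 in the 38 pairs that share 1 to 10 bases, and 43.2 in the 160 pairs that share 11 to 100. It was 83.9 in 209 pairs with 101 to 300 shared bases, 194 in 270 pairs with 301 to 1000, and 337 in 178 pairs with over 1000. The order was the same in each of the 6 libraries. If the counting read the strand opposite to the transcripts, a gene would be listed with reads that lie opposite its exons. The part of this in the order was not tested.

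**Figure D1:**
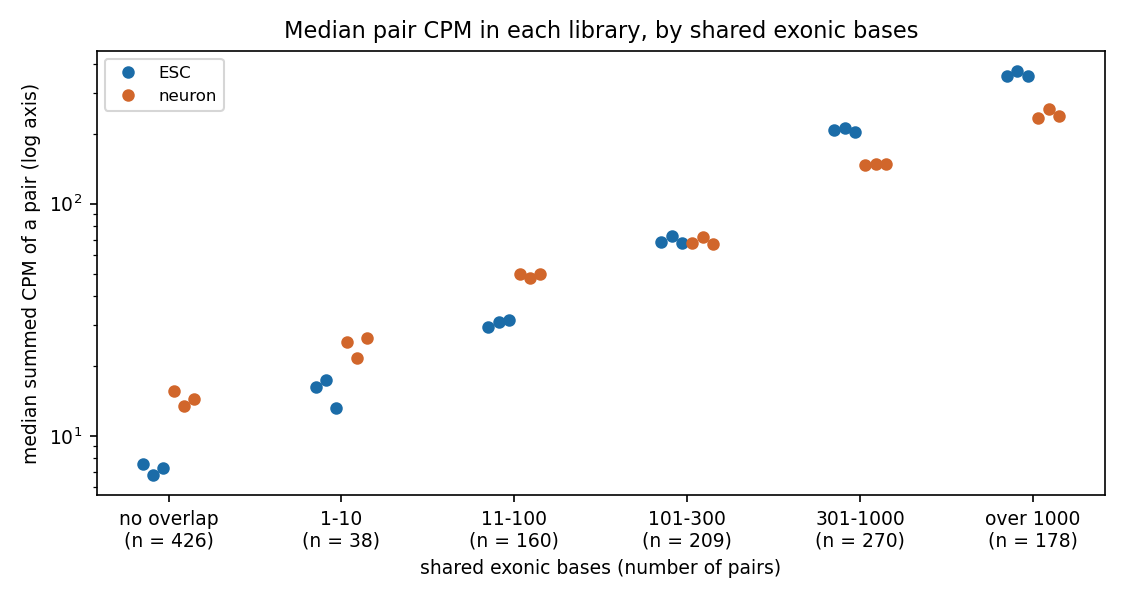
Median CPM summed over both genes of a pair (vertical log axis), for convergent pairs without overlap and for tail-to-tail pairs by shared exonic bases (horizontal axis). Each point is 1 library, blue for ESC and orange for neuron, and the medians climb from 6.77 to 15.7 CPM without overlap to 234 to 373 CPM beyond 1000 shared bases.

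Spearman's rho between shared bases and summed CPM was 0.488 over the 855 pairs, and 0.425 to 0.470 within single libraries. The CPM are not corrected for length, and rho with the exonic length of both genes was 0.189. Pairs just inside and just outside the rule lay close together. The 38 pairs that share 1 to 10 bases had a median of 22.4 CPM (quartiles 9.77 and 48.7), and 34 convergent pairs with a gap of 0 to 10 bases had a median of 16.2 CPM (quartiles 6.66 and 36.1). Unlike the 426 convergent pairs above, these 34 could include genes that share exonic bases with another opposite-strand gene.

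Within a pair the counts were usually very uneven. Between 728 and 743 pairs had at least 10 counts in an ESC library, and between 737 and 753 in a neuron library. In ESC libraries 48.3% to 52.3% of these pairs had at least 90% of their counts under 1 gene (50.3% ± 2.01, SD, n = 3). In neuron libraries the share was 40.2% to 43.3% (41.4% ± 1.62, SD, n = 3). The groups did not overlap, and the difference was 8.83 percentage points (exact two-sided permutation p = 0.1, the smallest possible). The gene with more counts held a median of 90.2% of a pair's counts in ESC and 85.4% in neurons. Counts per exonic base gave the same picture, with 49.99% and 42.06% of pairs at or past 90%. With every library thinned to 513425 counts the means were 55.3% and 41.5%. Both of these settings were chosen after the data were seen.

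**Figure D2:**
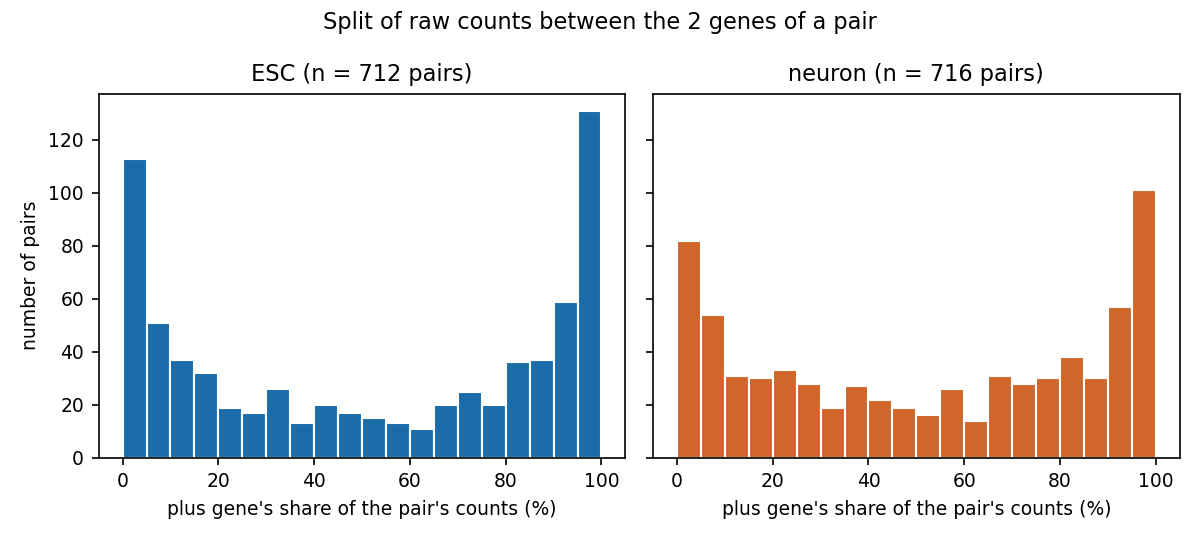
Number of pairs (vertical axis) by the plus gene's percentage of the pair's counts (horizontal axis), averaged over the 3 libraries of a group, for 712 pairs in ESC (left) and 716 in neurons (right). The outer bars are the tallest in both panels: 113 pairs lay under 5% and 131 at or over 95% in ESC, against 82 and 101 in neurons.

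Of all pairs, 436 had more counts under the plus gene and 409 under the minus gene. In 529 of the 782 pairs with enough counts for a test of the split (67.7%) the same gene led in all 6 libraries, against 68.5% of all opposite-strand pairs so tested. The 10 pairs with the highest summed CPM show what such a split looks like. In ESC the leading gene held a mean of at least 85.7% of the counts in each of them except Tcp1 with Acat3, where it held 74.4%.

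Cfl1, which encodes the actin-severing protein cofilin, had 101, 49 and 81 counts across the ESC libraries and 10, 16 and 15 across the neuron libraries, here and below in the order of replicates 1 to 3. Its partner Snx32, a sorting nexin gene, had 15024, 10716 and 12472 counts across the ESC libraries and 2047, 2022 and 1871 across the neuron libraries. Both genes were higher in every ESC library than in any neuron library. They lie on chromosome 19 at 5540483 to 5545229 and 5542263 to 5560566 of the deposited table and share 468 exonic bases. Snx32 was listed with 99.4% of the pair's counts in ESC and 99.3% in neurons, and per exonic base with 99.3% and 99.1%. Cofilin is an abundant protein of most cells, and whether the counts listed under Snx32 are reads of Cfl1 was not tested. The log2 fold changes, neuron over ESC, were −1.72 for Cfl1 (SE 0.28, edgeR adjusted p 8.58e-07) and −1.93 for Snx32 (SE 0.09, edgeR adjusted p 1.81e-21). The log2 odds of the plus gene within the pair differed by 0.23 (SE 0.36, edgeR adjusted p 0.677), so the split was not shown to change.

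Ctnnb1, which encodes β-catenin of cell adhesion and Wnt signalling, had 29, 18 and 27 counts across the ESC libraries and 12, 5 and 7 across the neuron libraries. Ulk4, a gene of the Unc-51-like kinase family, had 7539, 5838 and 6292 counts across the ESC libraries and 2155, 1958 and 1881 across the neuron libraries. The pair lies on chromosome 9, with 759 shared bases, and Ulk4 was listed with 99.6% of the pair in both groups, under the same doubt about the strand. Raw counts of both genes were higher in each ESC library, as were the library totals. On the normalised scale Ulk4 fell (log2 fold change −0.96, SE 0.09, edgeR adjusted p 1.16e-12). Ctnnb1 passed at −0.87 (SE 0.37, edgeR adjusted p 0.0277), and its call was lost under total counts, a mean of at least 10 counts, DESeq2 and without neuron replicate 2 or 3. Its log2 fold change was −1.19 to −0.14 over 12 alternatives, with adjusted p up to 0.728.

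Phykpl, whose product breaks down phosphohydroxylysine, had 20590, 15798 and 17320 counts across the ESC libraries and 1299, 1349 and 1219 across the neuron libraries. Hnrnpab, an RNA-binding protein gene that shares 809 bases with it on chromosome 11, had 98, 38 and 84 counts across the ESC libraries and 22, 16 and 14 across the neuron libraries. Neither gene's groups overlapped. Phykpl fell by 3.04 on the log2 scale (SE 0.09, edgeR adjusted p 2.48e-27), and Hnrnpab by 1.31 (SE 0.28, edgeR adjusted p 6.18e-05), a call that was lost under total counts (adjusted p 0.0576). Phykpl's share went from 99.6% ± 0.14 to 98.7% ± 0.30 of the pair (SD, n = 3), a small drop that passed the test (log2 odds change −1.76, SE 0.35, edgeR adjusted p 1.77e-06).

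Tlcd1, a gene for a membrane protein with a TLC domain, had 22459, 15697 and 18929 counts across the ESC libraries and 1992, 1852 and 1786 across the neuron libraries. Rpl23a, which encodes a protein of the large ribosomal subunit, shares 506 bases with it and had 88, 63 and 67 counts across the ESC libraries and 20, 20 and 13 across the neuron libraries. The groups of each gene stood apart, and the doubt about the strand holds here too. Tlcd1 fell by 2.58 on the log2 scale and Rpl23a by 1.28 (edgeR adjusted p 1.60e-25 and 1.59e-05). Lamp1, a lysosomal membrane glycoprotein gene, had 88, 45 and 69 counts across the ESC libraries and 14, 16 and 16 across the neuron libraries, while Grtp1, a TBC domain gene sharing 249 bases with it, had 4522, 3732 and 3824 and then 1457, 1115 and 1221. Grtp1 fell by 0.92 (edgeR adjusted p 1.80e-11), a call lost under total counts (adjusted p 0.0535).

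In the next 3 pairs the split moved further. Tti2, whose product helps assemble kinases of the PI3-kinase-related family, had 6534, 6335 and 5532 counts across the ESC libraries and 138, 174 and 110 across the neuron libraries. Mak16, a ribosome biogenesis gene sharing 882 bases with it, had 104, 91 and 88 counts across the ESC libraries and 56, 68 and 56 across the neuron libraries. Tti2 stood at 98.5% ± 0.09 of the pair in ESC and at 69.8% ± 3.06 in neurons (SD, n = 3), with no overlap. The log2 odds change was −4.80 (SE 0.27, edgeR adjusted p 4.23e-68). Per exonic base, Tti2 held 96.0% of the pair in ESC and 46.2% in neurons, so on that scale Mak16 led in neurons.

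Snapc3, a subunit gene of the complex that activates small nuclear RNA genes, had 5790, 5940 and 4663 counts across the ESC libraries and 427, 526 and 313 across the neuron libraries. Psip1, a chromatin-binding protein gene, had 124, 115 and 109 counts across the ESC libraries and 172, 172 and 102 across the neuron libraries. The raw counts of Psip1 overlapped between the groups, and on the normalised scale it rose by 1.09 (SE 0.17, edgeR adjusted p 1.73e-07) while Snapc3 fell by 2.96 (SE 0.18, edgeR adjusted p 1.36e-08). Apex1, a DNA repair endonuclease gene, had 110, 80 and 66 counts across the ESC libraries and 32, 32 and 35 across the neuron libraries. Pip4p1, a phosphoinositide phosphatase gene, had 6124, 5651 and 5284 counts across the ESC libraries and 370, 313 and 278 across the neuron libraries. Pip4p1 fell by 3.41 (SE 0.10, edgeR adjusted p 2.04e-27), and the change of split was 2.81 in log2 odds (SE 0.29, edgeR adjusted p 4.01e-21). Apex1 alone was at −0.61 (edgeR adjusted p 0.0118), a call lost under total counts, where its sign turned to 0.12, under the filter on a mean of 10 counts, and without neuron replicate 1.

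Tcp1, a chaperonin subunit gene, and Acat3, an acetyl-CoA acetyltransferase gene, formed the most balanced pair of the 10 in ESC. Tcp1 had 1680, 1401 and 1513 counts across the ESC libraries and 120, 106 and 110 across the neuron libraries, and Acat3 had 4976, 4070 and 4281 and then 417, 389 and 380. Both genes were far lower in every neuron library. The log2 fold changes were −3.02 and −2.74 (edgeR adjusted p 5.30e-24 and 5.31e-25), and the split was not shown to change (−0.28, SE 0.23, edgeR adjusted p 0.321).

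The pair with the most counts was mitochondrial. The genes mt-Nd5 and mt-Nd6 encode subunits of respiratory complex I on opposite strands of the mitochondrial genome and share 14 bases. Counts of mt-Nd6 were 43341, 27929 and 38689 in ESC and 2060, 2155 and 1443 in neuron libraries. Counts of mt-Nd5 were 4969, 9223 and 3288 in ESC and 2683, 2558 and 2103 in neuron libraries, with ESC replicate 2 the highest. The groups of mt-Nd6 were far apart (log2 fold change −3.53, SE 0.12, edgeR adjusted p 1.16e-19), while mt-Nd5 did not pass (−0.55, SE 0.48, edgeR adjusted p 0.340). The sign of mt-Nd5 turned without ESC replicate 2 and under total counts, with values of −0.92 to 0.18 over the alternatives.

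**Figure D3:**
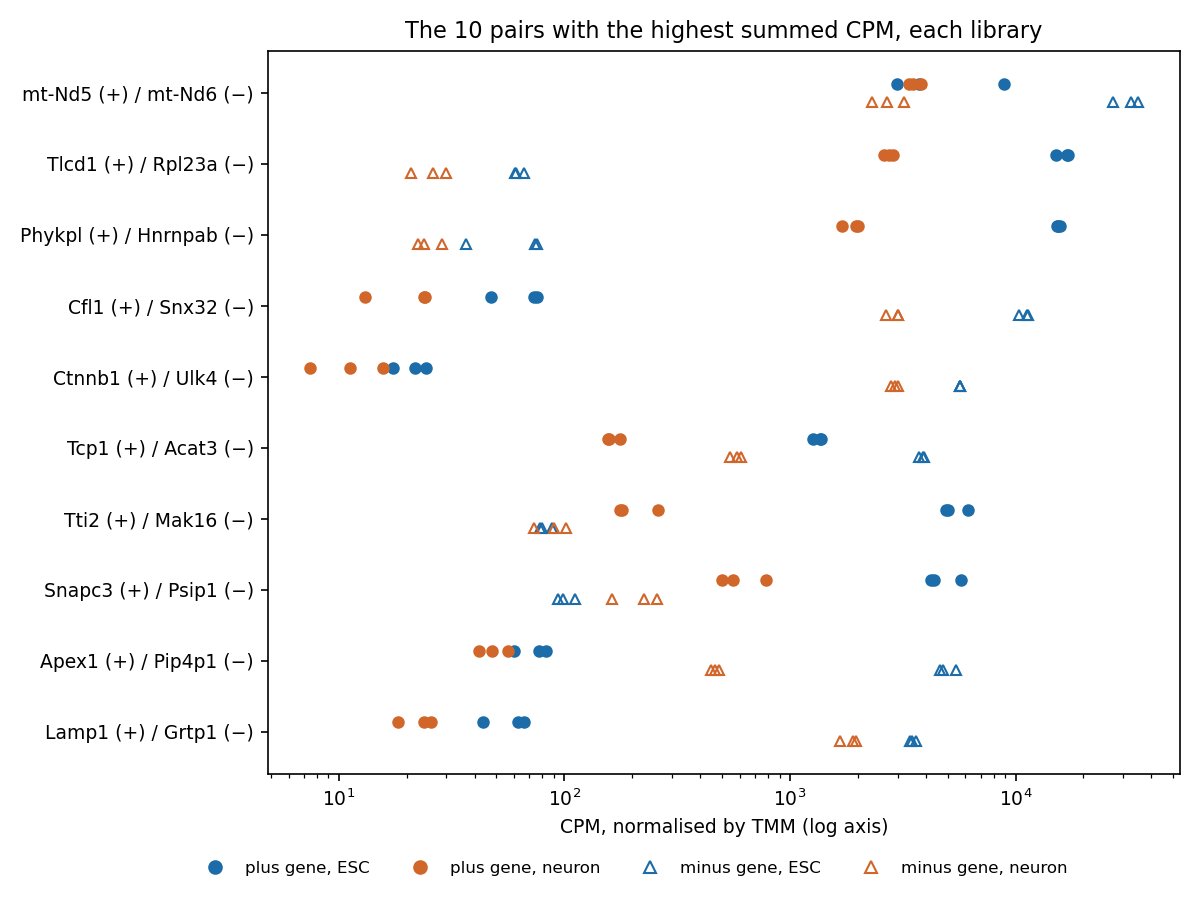
CPM (horizontal log axis) of both genes of the 10 pairs with the highest summed CPM, 1 point per library. Filled circles are plus genes, open triangles minus genes, blue is ESC and orange is neuron, and in pairs such as Phykpl with Hnrnpab the partners lie far apart in both groups.

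Members changed between the groups about as often as other genes. Of the 1703 member genes 1243 passed edgeR's count filter, and 1012 of them (81.4%) differed at an edgeR adjusted p under 0.05, against 85.6% of all 7150 genes tested. Higher in neurons were 477 members and lower were 535, where 47.0% of all tested genes were higher and 38.6% lower. The median log2 fold change was −0.10 over tested members and 0.37 over all tested genes. The direction depended on the scaling: with total counts in place of the trimmed-mean factors, which moved the median of all genes to 1.10, 651 members were higher and 379 lower. Of the calls 63.2% were then higher in neurons, against 47.1% with the trimmed-mean factors. In bulk RNA, fewer cells of a type and less RNA per cell cannot be told apart.

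Both genes were tested in 485 pairs, at least 1 in 765 and none in 90. Both were called in 319 pairs. They moved the same way in 190, which is 39.2% of the 485 against 43.0% over all opposite-strand pairs. Both were higher in neurons in 82 of the 190 and both lower in 108. They moved in opposite ways in 129 pairs, or 26.6% against 25.3% over all opposite-strand pairs. Across the 485 pairs, Pearson's r between the log2 fold changes of the partners was 0.200 and Spearman's rho 0.185, as a description, since partners come from the same libraries. In the named head-to-head pairs the same numbers were 103 same and 37 opposite of 216, with r = 0.360. Pearson's r was 0.440 in the named pairs with 1 gene inside the other and 0.430 over all opposite-strand pairs. These differences were not tested.

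**Figure D4:**
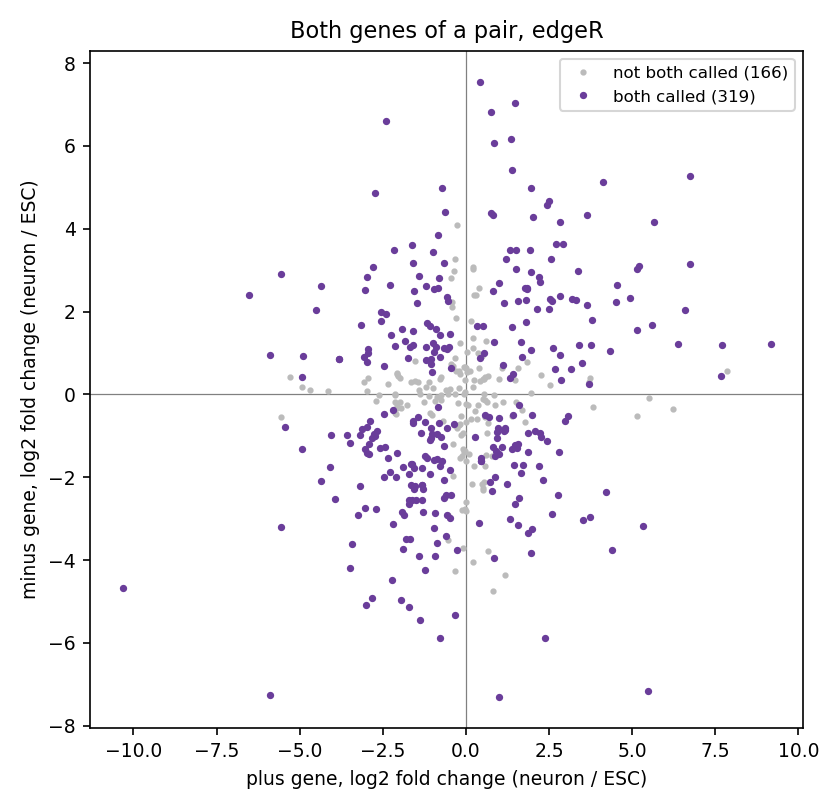
Log2 fold change, neuron over ESC, of the plus gene (horizontal axis) and of the minus gene (vertical axis) for the 485 pairs with both genes tested. Purple points are the 319 pairs with both genes called, grey points the other 166, and points fill all 4 quadrants.

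The split within a pair was tested by edgeR on the counts of both genes, a comparison that does not depend on scaling between libraries. Of 782 tail-to-tail pairs with enough counts, 474 (60.6%) changed their split, against 47.0% over all 4031 opposite-strand pairs tested. The plus gene's share was higher in neurons in 242 and lower in 232. In 111 pairs (14.2% of those tested, against 9.82% over all opposite-strand pairs) the leading gene was a different one in all neuron libraries than in all ESC libraries, with a call. These classes were not matched on counts. The median CPM of a gene was 33.4 in members and 16.7 in named head-to-head pairs. With at least 50 counts in every library, 282 of 395 tail-to-tail pairs were called. Whether splits change more often in tail-to-tail pairs at equal counts was not tested. The 5 largest changes in each direction follow, among pairs with at least 10 counts in every library. The doubt about the strand holds for each of these pairs. A rise or fall in them is that of the counts listed under a symbol.

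Srrm4, which encodes a splicing factor of neuronal microexons, had 296, 219 and 272 counts across the ESC libraries and 1, 1 and 1 across the neuron libraries. Its antisense gene Srrm4os had 6, 1 and 6 counts across the ESC libraries and 127, 122 and 109 across the neuron libraries. Neither gene's groups overlapped, and the order was inverse on the strands. Srrm4os held 1.53% ± 0.94 of the pair in ESC and 99.2% ± 0.07 in neurons (SD, n = 3), with 68 shared bases. The fitted log2 odds change of 12.62 (SE 0.49, edgeR adjusted p 1.04e-139) rests on 1 count per neuron library under Srrm4 and depends on the prior count.

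Tsr1, a gene of small-subunit ribosome maturation, had 25, 18 and 27 counts across the ESC libraries and 612, 587 and 477 across the neuron libraries. Srr, which encodes serine racemase, the enzyme that makes D-serine, had 2988, 2501 and 2523 counts across the ESC libraries and 161, 191 and 173 across the neuron libraries. They share 1240 bases on chromosome 11, at 74788897 to 74800168 and 74797185 to 74816774. All 3 neuron libraries lay above all ESC libraries for Tsr1 and below them for Srr. Tsr1's share was 0.868% ± 0.18 in ESC and 76.0% ± 2.93 in neurons (SD, n = 3), and per exonic base 1.03% and 79.0%. Its log2 odds rose by 8.50 (SE 0.27, edgeR adjusted p 9.78e-213), with Tsr1 up by 5.32 and Srr down at −3.18 on the log2 scale (edgeR adjusted p 1.45e-27 and 6.35e-25).

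Dnase2a, a lysosomal DNase gene, had 230, 320 and 224 counts across the ESC libraries and 896, 738 and 782 across the neuron libraries. Mast1, a microtubule-associated kinase gene, shares 1616 bases with it and had 1664, 1379 and 1327 counts across the ESC libraries and 13, 13 and 18 across the neuron libraries. The leading gene was Mast1 in each ESC library and Dnase2a in each neuron library. The change was 8.27 in log2 odds (SE 0.27, edgeR adjusted p 2.17e-191), with Dnase2a at 2.37 (SE 0.16) and Mast1 at −5.87 (SE 0.16). Nubp1, an iron-sulfur cluster assembly gene, had 28, 10 and 32 counts across the ESC libraries and 319, 303 and 248 across the neuron libraries, and Tvp23a, a Golgi membrane protein gene, had 1894, 1364 and 1513 and then 81, 62 and 67. Nubp1 held 1.42% of that pair in ESC and 80.5% in neurons (log2 odds change 8.15, SE 0.28, edgeR adjusted p 1.34e-184).

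Tsnaxip1 and Cenpt share 8 bases. Cenpt, an inner kinetochore protein gene, had 28, 24 and 22 counts across the ESC libraries and none in the neuron libraries (0 in each), at least 4.87-fold lower against 3 counts per library. Tsnaxip1 had 21, 33 and 37 counts across the ESC libraries and 31, 40 and 37 across the neuron libraries. Raw counts of Tsnaxip1 overlapped between the groups, and it rose by 0.98 on the log2 scale (SE 0.28, edgeR adjusted p 0.00131).

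Among the falls of the plus gene's share, Clvs1, a gene of clathrin-coated vesicles, had 340, 293 and 266 counts across the ESC libraries and 40, 37 and 25 across the neuron libraries. Asph, which encodes an aspartate and asparagine hydroxylase of the endoplasmic reticulum, had 4, 2 and 3 counts across the ESC libraries and 190, 198 and 154 across the neuron libraries. The pair shares 2302 bases on chromosome 4. Clvs1 held 99.0% ± 0.27 of the pair in ESC and 15.7% ± 1.71 in neurons (SD, n = 3), a log2 odds change of −9.00 (SE 0.37, edgeR adjusted p 9.04e-123).

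Nptn, an adhesion protein gene (neuroplastin), had 323, 195 and 298 counts across the ESC libraries and 2, 3 and 0 across the neuron libraries, against 15, 22 and 7 and then 53, 51 and 35 for Rec114, a meiotic recombination gene. Plscr3, a phospholipid scramblase gene, had 187, 131 and 185 counts across the ESC libraries and 3, 1 and 2 across the neuron libraries, and Tnk1, a tyrosine kinase gene, had 8, 8 and 11 and then 41, 35 and 46. In both pairs the leader was the plus gene in all ESC libraries and the minus gene in all neuron libraries. The changes of −8.89 (SE 0.48) and −8.46 (SE 0.51) in log2 odds passed (edgeR adjusted p 1.19e-73 and 1.14e-58), and both rest on few neuron counts under the plus gene.

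Gnal, which encodes the olfactory-type stimulatory G protein subunit, had 351, 227 and 264 counts across the ESC libraries and 31, 25 and 19 across the neuron libraries, while Mppe1, a gene of GPI anchor remodelling, had 26, 13 and 12 and then 311, 323 and 255. Gnal's share went from 94.5% to 7.73% (log2 odds change −7.62, SE 0.31, edgeR adjusted p 3.92e-128). B3gat2, a glucuronyltransferase gene, had 701, 529 and 605 counts across the ESC libraries and 490, 515 and 450 across the neuron libraries, and Smap1, an Arf GTPase-activating protein gene, had 1, 2 and 3 and then 263, 252 and 208. B3gat2 remained the leader in each library, and its share went from 99.7% to 66.9% (log2 odds change −7.16, SE 0.38, edgeR adjusted p 5.33e-77).

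**Figure D5:**
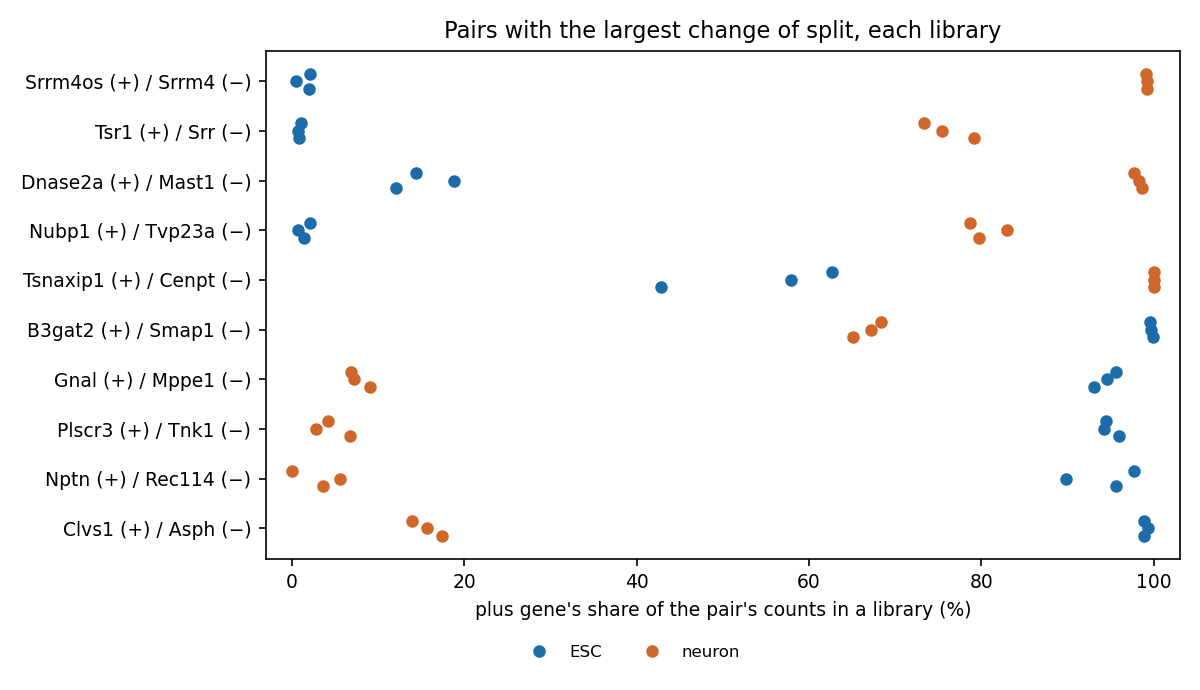
Plus gene's percentage of the pair's counts (horizontal axis) in each library for the 10 pairs with the largest change of split in either direction, blue for ESC and orange for neuron. No pair's groups overlap, and in Srrm4os with Srrm4 the points go from 1.53% on average in ESC to 99.2% in neurons.

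The longest overlaps among pairs with a tested gene are given next. Pstk, a gene of selenocysteine tRNA synthesis, shares 4652 exonic bases with Ikzf5, a zinc finger gene. Pstk had 730, 654 and 676 counts across the ESC libraries and 295, 283 and 251 across the neuron libraries, and Ikzf5 had 9, 17 and 9 and then 18, 14 and 13. Pstk led in each library. Its share went from 98.3% to 94.9% (log2 odds change −1.67, SE 0.39, edgeR adjusted p 8.80e-05), while the direction of its own change of −0.57 turned to 0.16 under total counts.

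Chaf1a, the large subunit gene of the histone chaperone CAF-1, shares 4648 bases with Ubxn6, a cofactor gene of the p97 ATPase. Chaf1a had 1170, 833 and 1021 counts across the ESC libraries and 551, 473 and 459 across the neuron libraries, and Ubxn6 had 1262, 1282 and 1133 and then 54, 62 and 48. Ubxn6 had more counts than Chaf1a in each ESC library and fewer in each neuron library. Ubxn6 fell by 3.75 on the log2 scale (SE 0.14, edgeR adjusted p 2.21e-24). Chaf1a, at −0.27 (edgeR adjusted p 0.0142), changed sign under total counts and under the filter on a mean of 10 counts.

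Cmtr1, an mRNA cap methyltransferase gene, shares 4584 bases with Ccdc167 and had 103, 48 and 72 counts across the ESC libraries and 146, 127 and 122 across the neuron libraries. It rose by 1.59 on the log2 scale (SE 0.18, edgeR adjusted p 2.74e-10), and its raw counts were higher in each neuron library although the libraries were smaller. Ccdc167 had 1176, 914 and 1004 counts and then 549, 500 and 477, and its value of −0.27 changed sign under total counts and under the filter on a mean of 10 counts. Nr2c2, a nuclear receptor gene, shares 4590 bases with the mitochondrial ribosomal protein gene Mrps25. Nr2c2 had 141, 120 and 121 counts across the ESC libraries and 177, 124 and 109 across the neuron libraries, with overlapping raw counts, and rose by 0.84 on the log2 scale (SE 0.16, edgeR adjusted p 8.30e-06). The change of its split, 0.85 in log2 odds (edgeR adjusted p 0.000806), was lost with limma (adjusted p 0.0794).

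Rai1, a chromatin regulator gene and the subject of the study, and Srebf1, a gene of lipid synthesis control, share 109 bases on chromosome 11 (59995839 to 60090023 and 60089915 to 60113407). Rai1 had 4, 3 and 6 counts across the ESC libraries and 20, 15 and 12 across the neuron libraries. Srebf1 had 8, 5 and 9 counts across the ESC libraries and 47, 40 and 41 across the neuron libraries. Both were higher in every neuron library, and Srebf1 led in all 6. Rai1's share was 36.9% ± 3.37 in ESC and 26.6% ± 3.65 in neurons (SD, n = 3). The change of split was −0.70 in log2 odds (SE 0.71, edgeR adjusted p 0.457) and so was not shown, with few counts under either gene.

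Genes of the chosen lists were found in 11 pairs, and the partner was listed with more counts than the list gene in 8 of them. This tally would turn round if the counting read the opposite strand. Of 22 genes of 3′-end processing, 10 were tested, with 3 higher and 2 lower in neurons, and 4 were pair members: Fip1l1, Cpsf1, Cpsf7 and Cstf2. Of these 4 members, 2 were tested and 1 was called. Among all genes tested 85.6% were called, 47.0% higher and 38.6% lower in neurons. Fip1l1, a subunit gene of the polyadenylation complex, had 27, 13 and 27 counts across the ESC libraries and 32, 36 and 31 across the neuron libraries and rose by 1.32 on the log2 scale (SE 0.28, edgeR adjusted p 4.76e-05). Its partner Lnx1, a ubiquitin ligase gene, had 183, 142 and 126 and then 129, 110 and 110. Cpsf7, a gene of a cleavage factor, did not pass (−0.38, edgeR adjusted p 0.374), while its partner Tmem216, a ciliary protein gene, fell by 1.19 (edgeR adjusted p 2.88e-10). Cstf2, a cleavage stimulation factor gene, had 5, 4 and 3 counts across the ESC libraries and 0, 0 and 2 across the neuron libraries, beside 200, 133 and 170 and then 64, 61 and 45 under Nox1, an NADPH oxidase gene. Cpsf1, the largest subunit gene of the cleavage and polyadenylation specificity factor, had 14, 17 and 13 counts and then 5, 2 and 7, near those of Adck5 (21, 15 and 7, then 10, 7 and 17).

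Of 15 genes whose products bind or process double-stranded RNA, 7 were tested, 4 higher and 2 lower in neurons, and 3 were pair members. For comparison, 85.6% of all genes tested were called, 47.0% higher and 38.6% lower. Adar, the RNA-editing adenosine deaminase gene, had 5, 0 and 0 counts across the ESC libraries and 20, 15 and 7 across the neuron libraries. Its partner Chrnb2, a nicotinic receptor subunit gene, had 692, 592 and 589 and then 480, 432 and 408. Adar's groups did not overlap, and it rose (log2 fold change 3.70, SE 0.60, edgeR adjusted p 1.20e-06) on counts at or near the floor in ESC. Ilf2, which encodes a nuclear factor of RNA-binding complexes, had 36, 19 and 20 counts across the ESC libraries and 54, 37 and 30 across the neuron libraries and rose by 1.44 on the log2 scale (SE 0.26, edgeR adjusted p 5.38e-06), although its raw counts overlapped. Its partner Snapin, a SNARE-associated protein gene, had 331, 272 and 296 and then 56, 62 and 47 and fell by 1.70 (edgeR adjusted p 2.76e-12). Dgcr8, a gene of microRNA processing, had 7, 5 and 5 counts and then 12, 11 and 3, too few for the filter, and Trmt2a, a tRNA methyltransferase gene opposite to it, had 4796, 4240 and 4049 and then 115, 95 and 104.

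No pluripotency, astrocyte, endothelial, fibroblast or Elavl list gene was in a pair. Gapdh, the glycolytic enzyme gene often used as a reference, had 238, 94 and 218 counts across the ESC libraries and 28, 20 and 19 across the neuron libraries, and Iffo1 opposite to it had 24, 17 and 15 and then 25, 10 and 13. Gapdh fell by 2.27 on the log2 scale (SE 0.26, edgeR adjusted p 1.04e-08), and Iffo1 did not pass (0.52, edgeR adjusted p 0.149). The housekeeping list as a whole moved with Gapdh: 8 of its 10 tested genes were lower and 2 higher in neurons, its sum was 2464 to 3083 CPM in ESC and 355 to 402 CPM in neuron libraries, and B2m, Sdha, Tfrc and Hprt were at 0 in every neuron library. Over all tested genes 38.6% were lower and 47.0% higher. The part of the shift in the housekeeping list in the changes of the pairs was not tested. Syn1, a synaptic vesicle gene on the neuronal list, had 20, 28 and 10 counts across the ESC libraries and 10, 7 and 7 across the neuron libraries, while Araf, a kinase gene sharing 9 bases with it, had 3, 3 and 4 and then 76, 78 and 68. Araf rose by 5.16 (SE 0.33, edgeR adjusted p 2.78e-17), and Syn1 did not pass (−0.53, edgeR adjusted p 0.223).

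Cnp, a myelin enzyme gene, made up most of the oligodendrocyte list, which summed to 2594 to 2900 CPM in ESC and 668 to 749 CPM in neuron libraries with Mag at 0 in all 6. Cnp had 3474, 2934 and 2802 counts across the ESC libraries and 345, 278 and 235 across the neuron libraries, and its partner Dnajc7, a co-chaperone gene, had 77, 63 and 65 and then 30, 16 and 20. Raw counts of each gene were higher in every ESC library, as were the library totals. Cnp fell by 2.68 on the log2 scale (edgeR adjusted p 6.88e-24). Dnajc7 was at −0.89 (edgeR adjusted p 0.00122), a call lost under total counts (adjusted p 0.558). The microglial list gene Csf1r, a cytokine receptor gene, had 266, 258 and 204 counts across the ESC libraries and 97, 89 and 75 across the neuron libraries, beside 2, 1 and 2 and then 0, 1 and 0 under Hmgxb3. Of its list, Ptprc, C1qa, C1qb, C1qc, Tmem119 and Itgam were at 0 in every library. The astrocyte list summed to 8.28 to 12.7 CPM in ESC and 72.1 to 103 CPM in neuron libraries. Its 2 tested genes were both higher in neurons. The endothelial and fibroblast list went the other way, from 16.45 to 22.62 CPM in ESC to 3.21 to 4.47 CPM in neuron libraries. The part of other cell types in the changes of the pairs was not tested.

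In the 79 pairs of a coding and a non-coding gene, the non-coding gene had more counts in 59, the coding gene in 17, and 3 were equal. The non-coding gene was listed with a median of 94.3% of the pair's counts. Both figures would belong to the coding genes if the counting read the opposite strand. Of 54 non-coding genes tested, 23 were higher and 25 lower in neurons, and of 28 coding partners tested, 18 were higher and 6 lower. Of all tested genes 47.0% were higher and 38.6% lower. A gene could pass the count filter on fewer counts in the smaller neuron libraries. Med13 passed with 8, 8 and 7 in neurons, but Usp29 failed with 30, 12 and 19 in ESC. How much of the 18 and 6 is due to the filter was not tested. Examples follow, chosen after their values were seen. Tomm6os had 2606, 2224 and 2179 counts across the ESC libraries and 287, 293 and 297 across the neuron libraries, beside 8, 9 and 10 and then 19, 10 and 15 under Prickle4, a planar polarity gene family member. Scpep1os had 2225, 1340 and 1686 counts and then 99, 79 and 67, beside 14, 4 and 9 and then 0, 0 and 1 under the carboxypeptidase gene Scpep1. In both pairs the antisense gene led in all 6 libraries.

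Man2c1os had 1026, 854 and 852 counts across the ESC libraries and 166, 129 and 144 across the neuron libraries, and Sin3a, a corepressor scaffold gene, had 26, 8 and 13 and then 44, 29 and 16. Sin3a rose by 1.66 on the log2 scale (edgeR adjusted p 2.26e-05) as Man2c1os fell by 1.89 (edgeR adjusted p 2.37e-17). Myadml2os had 890, 1058 and 759 counts across the ESC libraries and 0, 0 and 1 across the neuron libraries, and Notum, which encodes a Wnt-inactivating carboxylesterase, had 51, 46 and 42 and then 1, 1 and 1, so both strands were near the floor in neurons. Dlx1as rose, with 332, 251 and 297 counts across the ESC libraries and 902, 625 and 646 across the neuron libraries (log2 fold change 2.05, SE 0.12, edgeR adjusted p 7.05e-19). Opposite to it Metap1d, a methionine aminopeptidase gene, had 1, 0 and 2 counts and then 74, 72 and 53.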

How the data were processed

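The authors deposited a table of raw read counts per gene for 57010 genes, with exon positions, strand and length. The submitters' processing notes name cutadapt, STAR, RSEM and the build GRCm39 (mm39), and per the file headers the columns come from STAR alignments. The counting tool, its strand setting and all versions are not given in the sources used here. Positions are printed as in the deposited table. Each of the 6 count columns carries the library name that the labels give for a sample, and 0 were left over. Groups and replicate numbers came from the sample titles. Nothing says that replicates came from separate animals or cultures, so p-values measure the spread between these samples only. Symbols and gene types came from GENCODE M21 by gene identifier, and 52029 genes (91.3%) had one. Sequences came from transcripts of that release on GRCm38, and a genome of the table's build was not used here.

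Pairs were found from merged exons in Python 3.11.15. Counts were used as deposited. Genes were tested with edgeR 4.0.16 in R 4.3.3 (filterByExpr with a minimum count of 10, TMM factors, glmQLFit robust and glmQLFTest) on all 6 samples with no covariate, and p-values were adjusted by Benjamini-Hochberg over the 7150 genes tested, with 0.05 as the threshold. The split within pairs was tested with edgeR on 2 columns per library, the plus and the minus gene, with a term for each library, over 4031 opposite-strand pairs with at least 10 counts in at least 3 libraries. Standard errors are the log2 change over the square root of F and are approximate. Shares per library were compared by exact permutation. Both tests were tried on simulated data, where the test of the split missed most of the planted changes. A missing call does not show that a gene or a split stayed the same. Floors of 3 counts cover counting error only.

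The text names the 10 pairs with the highest summed CPM, the 5 largest rises and 5 largest falls of the plus gene's odds among called pairs with at least 10 counts in every library, the 5 longest overlaps with a tested gene, pairs holding a gene of 10 lists, and Rai1 with its partner. Of the 5 longest overlaps, 1 is not reported here. Members, lists and this rule were chosen with earlier results of these data known. Alternatives were DESeq2 1.42.0, its size factors, total counts, other filters, the replicate block, limma 3.58.1, other thresholds and leaving out each replicate.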

Additional observations from a re-analysis of the deposited data

How the results depend on the processing

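Depth limits these results most in the neuron libraries, where 3 counts stand at 3.92 to 4.81 CPM. Keeping only pairs in which neither gene overlaps a further gene left fewer pairs and gave 607 member genes called (of 743 tested), 109 pairs called the same way, 293 of 472 pairs called for a change of split, and differences between groups, neuron minus ESC in percentage points, of −5.44 for the share of counts in members and −5.28 for the share of pairs with at least 90% of counts in 1 gene. With at least 50 counts in every library, 282 of 395 pairs were called for a change of split, and the 90% share differed by −14.4 points with 50 counts. It differed by −6.05 at a threshold of 75%, −12.2 with at least 100 shared bases and −13.8 after thinning. The share of counts differed by −7.09 with at least 100 shared bases and by −6.67 without mitochondrial pairs. These settings change which pairs or counts are used, and the cause was otherwise not tested.

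The differences between groups kept their sign in each alternative run, but the balance of member genes did not: under the filter on a mean of 10 counts, 510 rose and 465 fell in neurons. Leaving out each replicate gave 947 to 1039 member genes, 158 to 201 pairs called the same way, 418 to 465 changes of split, −8.90 to −8.40 points and −9.80 to −7.80 points. Of 1012 called genes, 972 were tested in all 6 such fits and 871 were called in all, with no change of sign. Of 474 called pairs, 447 were tested in all, 365 were called in all, and 1 changed sign in a fit.

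With the replicate block, 1010 genes, 188 pairs and 451 changes of split were called. Deviations of same-numbered samples correlated at 0.0189, 0.00394 and −0.0223, so a shared number is not shown to mark a shared origin. With DESeq2, 954 genes were called.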

Other observations

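Some protein families recurred among the members, and they were picked after the values had been seen. The doubt about the strand holds for each of these families. The 7 cytosolic ribosomal protein genes in pairs (Rpl23a, Rpl32, Rps25, Rpl5, Rpl28, Rps28 and Rpl31) were all tested, and 6 were lower and none higher in neurons by edgeR, and their median was −1.53 on the log2 scale. Over all tested genes 38.6% were lower and 47.0% higher. In 5 of the 7 pairs the partner had more counts. Rps28 had 392, 299 and 305 counts across the ESC libraries and 43, 33 and 29 across the neuron libraries, beside 21, 19 and 16 and then 40, 38 and 23 under Kank3. Rpl5 did not pass (−0.01, SE 0.26, edgeR adjusted p 0.985). Of 6 mitochondrial ribosomal protein genes tested, 4 were lower and 1 higher, and of 4 sorting nexin genes tested, 4 were lower. Of 12 zinc finger genes with Zfp symbols that were tested, 7 were higher and 3 lower, and the partner had more counts in 14 of 18 such pairs. Of 19 solute carrier genes tested, 8 were higher and 5 lower, of 4 complex I subunit genes encoded in the nucleus 2 were higher and none lower, and of 6 DnaJ genes 1 was higher and 4 lower. Kinesin, proteasome and potassium channel genes had at most 2 tested members each.

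Thra and Nr1d1 are a textbook tail-to-tail pair of nuclear receptor genes, for thyroid hormone receptor alpha and the circadian repressor Rev-erb alpha. Nr1d1 had 220, 122 and 146 counts across the ESC libraries and 2192, 1937 and 1803 across the neuron libraries, and Thra had 50, 57 and 42 and then 65, 49 and 37. The groups of Nr1d1 stood far apart (log2 fold change 4.37, SE 0.12, edgeR adjusted p 7.02e-29), and Thra rose by 0.75 (SE 0.23, edgeR adjusted p 0.00290) although its raw counts overlapped. Thra's share of the pair went from 24.2% ± 6.86 to 2.45% ± 0.43 (SD, n = 3), with 263 shared bases. The pair was chosen after its values were seen.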
